A study of Mus musculus with 13 samples.

Results

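A set of 10 genes that brake or drive the entry into S phase was followed through ChIP-seq lists of OCT4 and SMAD3 binding in reprogramming fibroblasts. They are the INK4 inhibitors Cdkn2a, Cdkn2b and Cdkn2c, the CIP/KIP inhibitors Cdkn1a, Cdkn1b and Cdkn1c, the checkpoint factor Trp53 with its ubiquitin ligase Mdm2, and the D-type cyclins Ccnd1 and Ccnd2. Members were chosen by name, and each was given a window of its GENCODE vM21 span (mm10) plus 10 kb on each side. These 10 genes were set against the 21938 protein-coding genes of the annotation. All cells were mouse embryonic fibroblasts (MEFs) of the TNG MKOS line, with a Nanog-GFP reporter and a doxycycline (dox)-inducible cassette of c-Myc, Klf4, Oct4 and Sox2 followed by mOrange, from embryos of both sexes on a mixed genetic background. All groups also carried a retroviral Smad3CA, a constitutively active Smad3, so no group shows SMAD3 without it. Chromatin was taken on day 3. Cells given 1 µg/ml dox (Dox+) gave 3 OCT4 and 3 SMAD3 precipitations, untreated cells (Dox-) gave 3 SMAD3 precipitations, and each condition had 2 inputs. That dose comes from the labels, whereas the study's methods name a smaller amount of dox for reprogramming medium. Nothing in the labels says that replicates came from separate embryos, so their spread may be technical, and peak lists hold no expression by which the fibroblast label could be checked.

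INK4 proteins bind CDK4 and CDK6 and keep them from D-type cyclins, and CIP/KIP proteins inhibit cyclin-CDK complexes more broadly, so that the RB protein stays unphosphorylated and E2F targets stay off. Cdkn2a encodes p16Ink4a and, from an upstream first exon and another reading frame, p19Arf, which binds MDM2 and so spares p53, the activator of Cdkn1a. Several of these genes are known barriers to reprogramming, and TGF-β signalling through SMAD3 is known for inducing Cdkn2b and Cdkn1a in epithelial cells.

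The replicate lists differed greatly in length, and this sets what any single gene can show. SMAD3 peaks numbered 420, 23981 and 10374 in Dox+ replicates 1, 2 and 3, and 1656, 18588 and 4038 in Dox- replicates 1, 2 and 3, while the merged lists, called on pooled replicates, held 12576 and 11512. OCT4 lists held 1191, 1131 and 103 entries, and 2083 when merged. Read depths per replicate were not in the sources used here. The fold column of the SMAD3 lists did not follow the peaks, because over 12356 merged Dox+ peaks its Spearman correlation with the fold of the overlapping replicate 2 peak was 0.057, against 0.68 over 1002 OCT4 entries. The width of SMAD3 peaks did carry over (0.67), so SMAD3 peaks are described here by position, presence and width.

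SMAD3 peaks lay over all 10 genes, with and without dox. The merged Dox+ list had a peak in the window of 10 of 10 members, against 52.5% of all protein-coding genes, and the merged Dox- list likewise in 10 of 10, against 48%. Each member had such a peak at a start of its own. All 10 members had a peak within 1000 bp of one of their own transcript starts in the Dox+ list, where 42.5% of all genes did, and all 10 in the Dox- list, where 37.8% did. In both lists together this held for 10 of 10 members and 33.6% of all genes. The number of promoters annotated per gene also sets such shares and was not accounted for. A peak in at least 2 of the 3 replicate lists was found for 8 members in Dox+ (46.5% of all genes) and for 8 in Dox- (24.8% of all genes). The 2 members that missed it were Trp53 and Cdkn1c in each group, whose peaks came from replicate 2 alone. The Dox+ replicate 1 list had no peak at any member, the Dox+ replicate 2 list had one at all 10 and replicate 3 at 8. In Dox- the counts were 7, 10 and 5.

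Joined across lists, the windows held 31 distinct regions, of which 30 had a SMAD3 peak. Of these, 14 were in both merged SMAD3 lists, 6 in the Dox+ list only, 2 in the Dox- list only, and 8 only in replicate lists. Of the 14 shared regions, 11 lay within 1000 bp of an own start. Absence from a merged list did not always mean absence from the replicates, as the Cdkn1a case below shows.

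The INK4/ARF locus, with Cdkn2a (chromosome 4, 89274471 to 89294653) and Cdkn2b (chromosome 4, 89306299 to 89311039) in mm10 coordinates, both on the minus strand, carried 4 SMAD3 regions common to both conditions, and its pattern is drawn in the map of Cdkn2b and Cdkn2a. At the p16Ink4a start the merged peak was 0.323 kb wide in Dox+ and 0.444 kb in Dox-. The replicate peaks there were 0, 0.468 and 0.225 kb in Dox+ and 0.481, 0.537 and 0 kb in Dox-. At the start of p19Arf the merged peak was 1.04 kb wide in Dox+, where it covered the start itself, and 0.779 kb in Dox-, where it lay wholly upstream. Replicate peaks at p19Arf were 0, 1.31 and 0.243 kb in Dox+ and 0, 1.44 and 0 kb in Dox-, so the widths overlapped between groups at both promoters. Of the Dox+ replicates, only replicate 2 had a peak over the p19Arf start itself, and that of replicate 3 lay wholly upstream. Another region between the genes, 7.05 kb into the direction of transcription from the Cdkn2b start and therefore beyond the Cdkn2b 3′ end, measured 0.236 kb in Dox+ and 0.812 kb in Dox-. The replicates that had it were replicate 2 of each group, with 0.346 and 0.911 kb. At the start of Cdkn2b, which encodes the INK4 inhibitor p15, the merged peaks were 0.764 and 0.739 kb wide, and the replicates had 0, 1.77 and 0.632 kb in Dox+ and 0.229, 1.36 and 0 kb in Dox-.

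**Figure D1:**
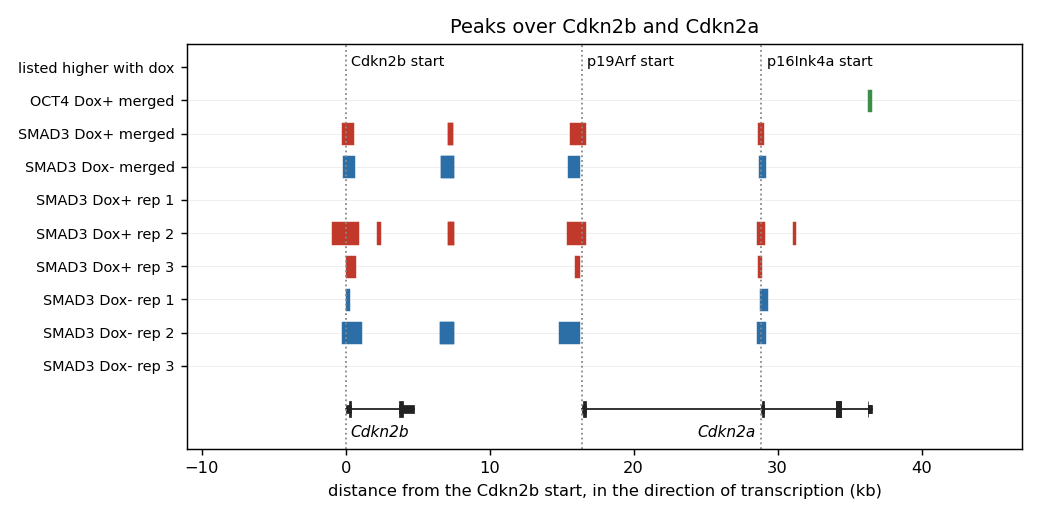
Peaks over Cdkn2b and Cdkn2a by list, as bars along the distance from the Cdkn2b start in kb, with exons below (thick for coding) and dotted lines at the 3 starts. In both merged lists SMAD3 bars stand at the 3 starts, except that the Dox- bar near p19Arf lies wholly upstream of its start. There are none in Dox+ replicate 1 or Dox- replicate 3. The OCT4 bar lies at the far end of Cdkn2a, and no site listed higher with dox falls in the map.

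The sequences under the 4 shared regions are given for the part that both merged lists cover and that lies outside the annotated UTRs, since these are the bases at which SMAD3 was called with and without dox. They are from GRCm38 (mm10), on the minus strand, on which both genes are read. They come from chr4:89282193-89282353 (p16Ink4a, within the long Cdkn2a intron), chr4:89294825-89295024 (p19Arf, intergenic, the first 200 bp from its gene side), chr4:89303673-89303908 (interval, intergenic) and chr4:89311040-89311226 (Cdkn2b, intergenic). Capitals mark the SMAD half-site CAGAC or its reverse complement GTCTG.
p16Ink4a: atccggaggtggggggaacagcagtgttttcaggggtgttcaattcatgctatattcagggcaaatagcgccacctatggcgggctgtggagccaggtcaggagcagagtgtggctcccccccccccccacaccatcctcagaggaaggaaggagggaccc
p19Arf: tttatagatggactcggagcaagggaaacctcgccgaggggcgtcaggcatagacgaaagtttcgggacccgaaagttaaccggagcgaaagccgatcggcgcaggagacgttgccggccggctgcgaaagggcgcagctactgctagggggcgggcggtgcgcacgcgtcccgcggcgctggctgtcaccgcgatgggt
Interval: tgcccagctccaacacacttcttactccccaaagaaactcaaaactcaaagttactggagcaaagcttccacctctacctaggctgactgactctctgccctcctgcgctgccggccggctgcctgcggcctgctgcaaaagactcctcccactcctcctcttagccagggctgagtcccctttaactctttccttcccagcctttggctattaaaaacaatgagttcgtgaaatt
Cdkn2b: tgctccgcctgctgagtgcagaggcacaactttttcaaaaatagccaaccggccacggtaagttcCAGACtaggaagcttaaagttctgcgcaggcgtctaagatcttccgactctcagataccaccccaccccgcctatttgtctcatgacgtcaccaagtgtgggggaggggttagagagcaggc
GC content was 60.2%, 65.5%, 52.5% and 54.0% in that order, and 1 half-site was found in these windows, in that of Cdkn2b. The central 200 bp of each merged peak is a different stretch. There the Dox- peaks held 2 half-sites at p16Ink4a and 1 at p19Arf, and the Dox+ peaks none at either. At Cdkn2b the central stretch held 2 in Dox+ and 1 in Dox-.

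Cdkn2c (chromosome 4, 109660876 to 109667189), which encodes the INK4 inhibitor p18, had a narrow peak at its start, of 0.215 kb in Dox+ and 0.383 kb in Dox- merged lists. It was in 5 of the 6 replicate lists, with 0, 0.343 and 0.486 kb in Dox+ and 0.291, 0.548 and 0.240 kb in Dox-. A second region, 9.44 kb upstream and at the start of the neighbouring gene Faf1, was 0.680 and 0.716 kb wide in the merged lists. That region, and not the one at the Cdkn2c start, was the one in the deposited table of OCT4 against SMAD3 binding.

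Cdkn1a (chromosome 17, 29090976 to 29100727), which encodes p21 and is a classic p53 target, had the densest set of regions among the CIP/KIP genes. The one at its main start was in the merged Dox+ list (0.439 kb) and not in the merged Dox- list, yet Dox- replicate 2 had a peak of 2.31 kb there, against 0.769 and 0.741 kb in Dox+ replicates 2 and 3. The region from the internal start into the first intron was in both merged lists and in 5 of 6 replicate lists. In the merged Dox+ list it held 2 separate peaks, of 474 bp over the internal start and 1026 bp further in, which summed to 1.5 kb. The merged Dox- list had 1 peak there, of 0.934 kb. Replicate widths were 0, 2.99 (a sum of 792 and 2202 bp) and 0.788 kb in Dox+. In Dox- they were 0.213, 2.01 and 0.414 kb. Upstream of that internal start, at chr17:29093592-29093768 (plus strand, inside Cdkn1a and the antisense transcript AC167363.2), the bases shared by both merged peaks hold 1 half-site, in capitals.
Cdkn1a: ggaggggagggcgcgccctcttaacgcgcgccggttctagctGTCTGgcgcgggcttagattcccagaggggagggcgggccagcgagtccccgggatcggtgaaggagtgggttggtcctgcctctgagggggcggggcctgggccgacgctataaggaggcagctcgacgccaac
Cdkn1b (chromosome 6, 134920401 to 134925513), which encodes p27, had a peak at its start, of 0.769 kb in the merged Dox+ and 1.15 kb in the merged Dox- list. This peak was in 5 of 6 replicate lists, with 0, 1.72 and 0.726 kb in Dox+ and 0.210, 0.300 and 0.226 kb in Dox-. A further region 7.49 kb downstream of the Cdkn1b start, nearest the start of the noncoding gene Lockd, was 1.57 and 1.54 kb wide in the merged lists. Cdkn1c (chromosome 7, 143458339 to 143461050), the imprinted p57 gene, had 1 region, at its start, of 0.297 and 0.302 kb in the merged lists and 0.348 and 0.899 kb in replicate 2 of each group.

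Trp53 (chromosome 11, 69580359 to 69591873) likewise had 1 joined region, which reached over its start. The merged Dox+ peak (0.551 kb) lay from 0.675 to 1.226 kb into the gene. The merged Dox- list had 2 peaks, from -0.257 to 0.134 kb and from 0.942 to 1.412 kb, which summed to 0.861 kb. Replicate 2 had 2.28 kb in Dox+ and a sum of 1.66 kb in Dox-. Mdm2 (chromosome 10, 117688875 to 117710758), the p53 target that degrades p53, had 0.926 and 1.31 kb at its start, and replicate peaks of 0, 1.82 and 0.944 kb in Dox+ and 0.940, 3.90 and 0 kb in Dox-. A region beyond the Mdm2 3′ end, over the 3′ UTR of Cpm, was in the merged Dox- list only (0.691 kb), although Dox+ replicates 2 and 3 had it too (1.78 and 0.296 kb).

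The D-type cyclins, which activate CDK4 and CDK6, had the highest mean coverage of the members in Dox+. At the start of Ccnd1 (chromosome 7, 144929931 to 144939925) the merged peak was 2.57 kb wide in Dox+ and 0.210 kb in Dox-. Summed over their peaks, replicates there had 0, 2.93 and 2.19 kb in Dox+ and 0, 1.55 and 0.789 kb in Dox-. The Dox- sums thus fell between the Dox+ extremes. At the start of Ccnd2 (chromosome 6, 127125162 to 127152193), a region that runs over several transcript starts, the merged peaks summed to 3.50 kb in Dox+ and 4.76 kb in Dox-, and the replicates to 0, 5.16 and 3.98 kb against 0.229, 5.20 and 0.720 kb.

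Whether dox changed SMAD3 coverage was tested as the percent of each window that lay inside peaks, with 3 lists against 3. No member's groups separated. Coverage of the Ccnd1 window was 0%, 20.3% and 16.2% in Dox+ (12.2% ± 10.7, SD, n = 3) and 0%, 6.67% and 2.63% in Dox- (3.10% ± 3.36, SD, n = 3), the widest gap among the members, and it was within the Dox+ spread (exact two-sided permutation test, p = 0.4). The Ccnd2 window had 0%, 18.4% and 13.5% in Dox+ and 0.487%, 11.9% and 1.53% in Dox-, a mean difference of 6.00 percentage points (exact permutation p = 0.4). Both cyclins stood at 0% in Dox+ replicate 1, a list of 420 peaks, and had their highest value in Dox+ replicate 2, so the groups overlapped. Cdkn1b had 0%, 17.0% and 4.56% against 0.836%, 4.86% and 2.05%, and Cdkn1a 0%, 18.9% and 7.66% against 0.716%, 15.3% and 1.39% (exact permutation p = 0.7 for each gene). In both genes the Dox- values lay between the lowest and highest Dox+ values. For Cdkn2a the values were 0%, 5.74% and 1.16% in Dox+ and 1.20%, 7.19% and 0% in Dox-, with means of 2.30% ± 3.03 and 2.80% ± 3.85 (SD, n = 3, exact permutation p = 0.7). For Cdkn2b they were 0%, 9.30% and 2.55% against 0.926%, 9.18% and 0%, with an exact permutation p of 0.8. At both genes of the INK4/ARF locus the groups overlapped, and replicate 2 was the highest list of each group.

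Mdm2 had 0%, 9.27% and 2.96% against 2.24%, 17.1% and 0%, with the Dox- mean higher by 2.38 percentage points on a signed Dox+ minus Dox- difference of -2.38 (exact permutation p = 0.9). Cdkn2c, Cdkn1c and Trp53 differed by 0.35, -0.81 and 0.66 percentage points, each with an exact permutation p of 1. The test cannot go below 0.1 with 3 against 3 lists, and all Benjamini-Hochberg adjusted values over the 14706 genes with any coverage were 1, so it could call no gene. Among these genes 0.143% had all Dox+ lists above all Dox- lists and 0.0272% all below, and 0 of 10 members did either. The mean was higher in Dox+ for 7 members and lower for 3, with a median difference of 0.62 percentage points. Over all 14706 genes 74.4% had a higher mean in Dox+, with a median of 0.34, so the members' count lay near the background. When covered bases were counted per Mb covered by the whole list, 3 of 10 members were higher in Dox+, and without Dox+ replicate 2 it was 2 of 10. The share over all genes was not computed for these settings, so the counts cannot be read as particular to the members.

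**Figure D2:**
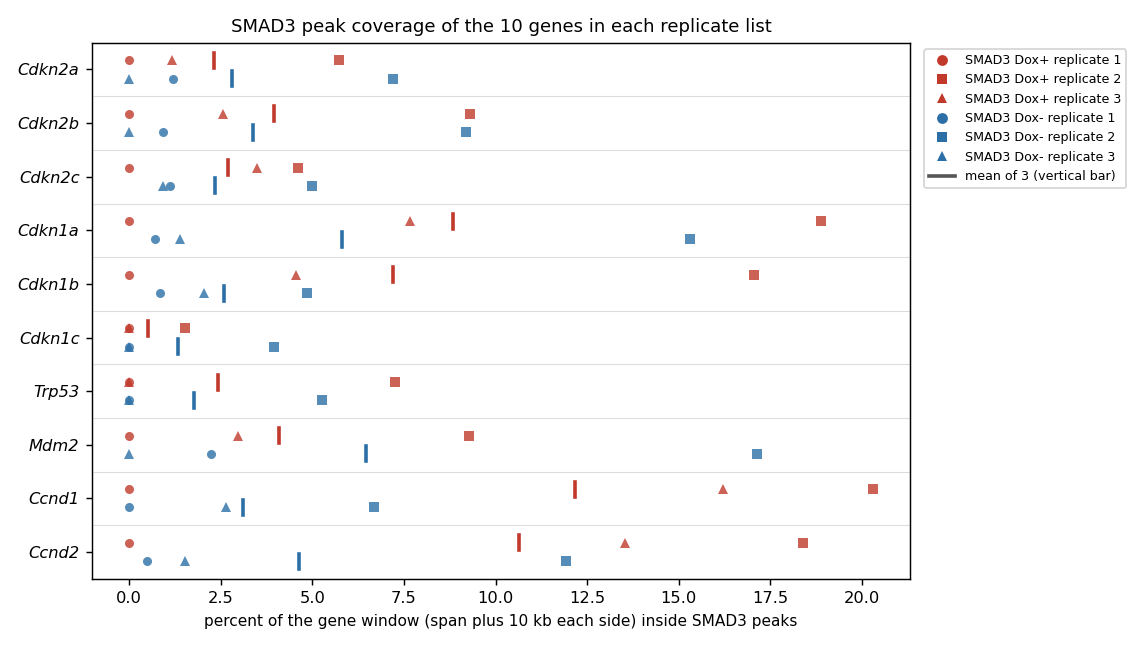
Percent of each gene window (horizontal axis) inside SMAD3 peaks, for each of the 3 Dox+ (red) and 3 Dox- (blue) replicate lists, with vertical bars at the group means. All Dox+ replicate 1 points stand at 0, and in no gene do the groups separate.

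Beyond the starts, 3 regions were called in 2 Dox+ replicates without being called in any Dox- replicate, and all 3 lay over the 3′ UTR of a member, at Ccnd1, Cdkn1a and Ccnd2. This pattern was picked after the values were seen. At the Ccnd1 3′ end, which overlaps the 3′ end of LTO1, the peaks were 0, 1.95 and 2.67 kb wide in Dox+ replicates and absent from all 3 Dox- lists. At the Cdkn1a 3′ end they were 0, 1.35 and 0.749 kb in Dox+ and again absent from Dox-. At the Ccnd2 3′ end they were 0, 1.84 and 0.357 kb, and absent from Dox-. The merged lists had the same split, with 1.83, 0.616 and 0.321 kb in Dox+ and none in Dox-. Close before the Cdkn1a region, which began 8.624 kb from the gene start, lay a merged Dox- peak from 7.534 to 8.446 kb (0.912 kb wide). The merged Dox+ list had no peak there, while replicate 2 of each group had one, of 0.462 kb in Dox+ and 0.238 kb in Dox-. Over the genome, 1752 regions were called in 2 or more Dox+ replicates and in none of Dox-, and 8.56% of these overlapped a 3′ UTR of a protein-coding gene, against 6.65% of the 13217 regions in at least 2 lists and 6.44% of those in lists of both groups. Dox- lists were the shorter ones in replicates 2 and 3, and the part of list length in these absences was not tested.

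The first and second of these 3′ regions were also in the deposited table of sites that differed with dox. The Ccnd1 site (chromosome 7, 144928705 to 144931372) had an authors' log2 mean concentration of 5.16 in Dox+ and 3.48 in Dox-, a ratio of 3.21. The Cdkn1a site (chromosome 17, 29099600 to 29100981) had 4.43 in Dox+ and 2.93 in Dox-, a ratio of 2.84. These are group means with no replicate values. Sites listed higher with dox were thus found for 2 of 10 members, against 6.64% of all genes, and sites listed lower for 0 of 10, against 3.85%. Counted by region, 22 of the 13217 regions present in at least 2 SMAD3 lists lay in the member windows. Of these, 2 were listed higher, against 8.9% of all such regions, and none lower, against 6.84%. The share of member regions listed higher (9.09%) was close to that background. No site at the INK4/ARF locus, Cdkn1b, Cdkn1c, Cdkn2c, Trp53, Mdm2 or Ccnd2 was listed in either direction. Of all sites listed higher with dox, 10.8% overlapped a 3′ UTR, and of those listed lower 4.65%.

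**Figure D3:**
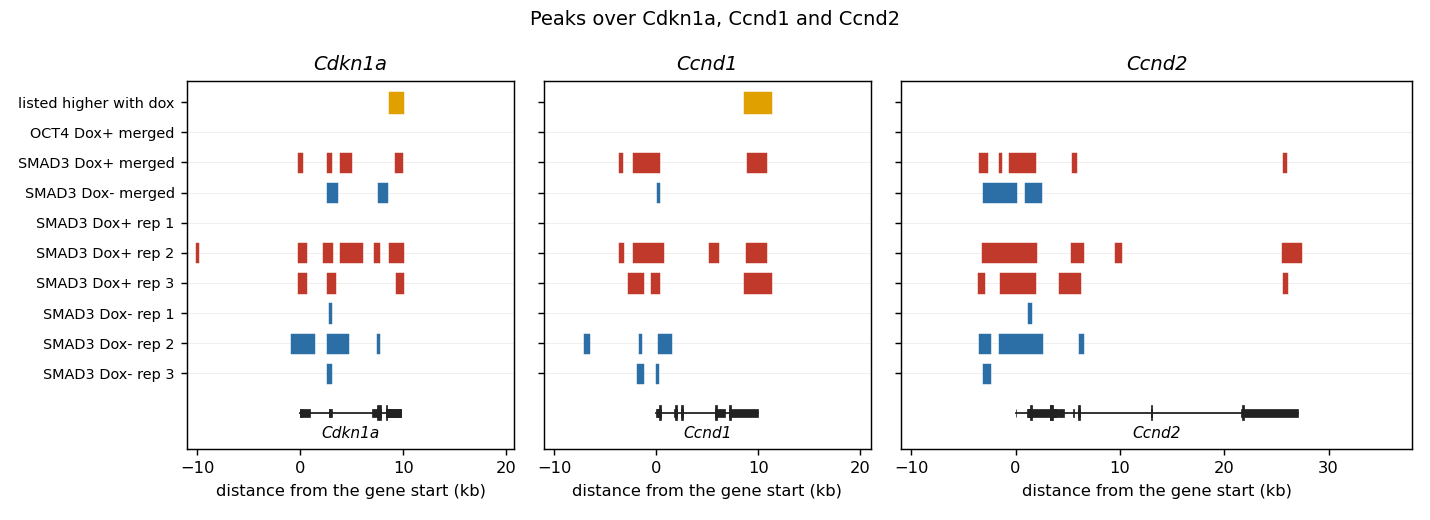
Peaks over Cdkn1a, Ccnd1 and Ccnd2 by list, as bars along the distance from the gene start in kb, with exons below and sites listed higher with dox in yellow on top. At the right-hand (3′) end of each gene, bars appear in Dox+ replicates 2 and 3 and in the merged Dox+ list and in none of the Dox- lists. In Cdkn1a a merged Dox- bar stands just to the left of these end bars.

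The Cdkn1a site runs past the end of the gene. The stretch between that end and the edge of the merged Dox+ peak, chr17:29100728-29100840 (plus strand, intergenic), is a TG-rich repeat with 1 half-site, in capitals, and is shown because it is the sequence outside the UTR at a site listed higher with dox.
Cdkn1a_3prime: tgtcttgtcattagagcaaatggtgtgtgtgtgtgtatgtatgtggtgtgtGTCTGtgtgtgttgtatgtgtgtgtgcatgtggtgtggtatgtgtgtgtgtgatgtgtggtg
Motifs were counted in the central 200 bp of each merged peak, on both strands. The half-site CAGAC was in 8 of 23 member peaks in Dox+ (34.8%), against 34.9% of all 12576 peaks, and in 7 of 18 in Dox- (38.9%), against 36.0% of 11512. The AP-1 motif TGANTCA was in 0 of 23 and 0 of 18 member peaks, against 5.61% and 7.50% of all peaks. The E-box CACGTG was in 3 of 23 and 3 of 18, against 5.62% and 4.20%. The KLF motif GGGNGTGG was in 2 and 3 member peaks (14.9% and 12.1% of all), and the octamer ATGCAAAT in none (0.771% and 0.539% of all). None of these motifs holds another, and with so few member peaks these counts are a description only.

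OCT4 was called at 1 of the 10 members. The merged list had a peak in the window of Cdkn2a only, against 4.85% of all genes, and no member had a peak in at least 2 OCT4 replicate lists, against 1.51%. No member had an OCT4 peak within 1000 bp of an own start, where 0.428% of genes did. The Cdkn2a peak (chromosome 4, 89274587 to 89274759) was 0.173 kb wide and lay in the 3′ UTR, 7.52 kb from the p16Ink4a start. Its fold over input was 5.44, rank 1387 of 2083 entries, its −log10 q-value was 6.75, and no OCT4 replicate list held it. The 29 bases around its summit, chr4:89274662-89274690 on the minus strand, hold none of the motifs searched.
OCT4_summit: gatgctagcgtgtctagcatgtggcttta

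In the deposited matrices, the pooled OCT4 signal over the central 200 bp of this peak was 19.6, in units of 1x-scaled ChIP minus input coverage, against a median of 21.6 over all merged OCT4 peaks. SMAD3 signal there was 4.00 in Dox+ (median of all OCT4 peaks 7.24) and 0.94 in Dox- (median 0.047). Within 500 bp of the peak the bins ran from -5.72 to 5.88 in Dox+ and from -5.75 to 8.78 in Dox-. These tracks are pooled and have no replicate error, so the difference between Dox+ and Dox- was not tested. No SMAD3 list had a peak at this position.

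**Figure D4:**
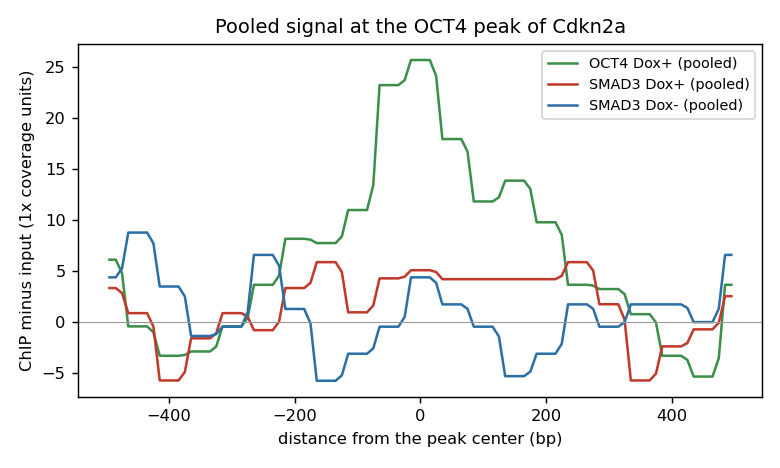
Pooled ChIP minus input signal (vertical axis, 1x coverage units) by distance from the center of the Cdkn2a OCT4 peak in bp, for OCT4 Dox+ (green), SMAD3 Dox+ (red) and SMAD3 Dox- (blue), without replicate error. OCT4 reaches 25.7 near the center, while both SMAD3 lines stay between -5.75 and 8.78.

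In the deposited table that set OCT4 against SMAD3 in Dox+ cells, 3 members had a site with SMAD3 above OCT4, against 5.15% of all genes, and none had OCT4 above SMAD3, against 4.17%. Of the 16 regions in the member windows that were in at least 2 of the 6 lists, 3 were listed with SMAD3 above OCT4, against 6.64% of all 9903 such regions. At the Cdkn2b start the authors' log2 mean was 3.76 for SMAD3 and 2.00 for OCT4, at the Cdkn1a internal start 4.28 and 2.38, and at the Faf1 start upstream of Cdkn2c 3.51 and 1.90. These compare different antibodies, and are no measure of relative occupancy.

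Genes around the members were read from lists chosen by name. The percentages in parentheses are the shares over all protein-coding genes. Of 16 further INK4, CIP and RB pathway genes, 14 had a merged SMAD3 peak in Dox+ and 13 in Dox- (52.5% and 48% of all genes), 2 a merged OCT4 peak (4.85%), 2 a site listed higher with dox (6.64%) and 1 a site listed lower (3.85%). Merged OCT4 peaks fell in the windows of Cdk6, the kinase that INK4 proteins bind, 127 kb into the gene at a fold of 8.61, and of Rb1, at folds of 4.48 and 6.19. Each of these peaks was in 1 OCT4 replicate list. E2f5 had a site listed higher with dox (log2 means 4.38 and 1.71). E2f1, which drives S-phase genes, had one listed higher (3.08 and 0.90) and another listed lower (1.88 and 3.31). Both were outside the gene, which is 10.5 kb long, centered at 17.65 kb (higher) and -2.54 kb (lower) from its start.

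Of 23 p53 pathway genes, 21 had a merged SMAD3 peak in each condition (52.5% and 48% of all genes) and none an OCT4 peak (4.85%). Sites listed higher were found for 2 (6.64% of all genes) and sites listed lower for 2 (3.85%). Sesn2 (4.88 and 3.29, at -4.14 kb from its start) and Perp, a p53 target in cell death (3.56 and 1.25, at its start), had sites listed higher with dox. Mdm4, which restrains p53 (2.79 and 4.33), and Gadd45g (2.85 and 4.10) had sites listed lower. The Gadd45g site was past the end of this 1.79 kb gene, centered 6.64 kb from its start. Of 15 genes known to regulate Cdkn2a or Cdkn2b, 14 and 13 had a merged SMAD3 peak (52.5% and 48% of all genes), and 3 had a site listed higher (6.64%) and none lower (3.85%). These 3 were Cbx8, a Polycomb protein that represses the INK4/ARF locus (3.72 and 1.53, at its start), Kdm6b, the H3K27 demethylase (3.29 and 0.44), and Zbtb7a, a repressor of p19Arf (5.44 and 3.91). The Zbtb7a site was centered 18.3 kb from the start of a 17.8 kb gene. No Cdkn2a or Cdkn2b site accompanied these 3 genes in the table.

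Of 7 further genes of the TGF-β cytostatic response, 5 had a merged SMAD3 peak in each condition (52.5% and 48% of all genes), 2 a merged OCT4 peak (4.85%) and none a listed dox site (6.64% higher and 3.85% lower). Cdc25a and Klf4 had merged OCT4 peaks, at folds of 5.52 and 5.48, the latter outside the gene that the cassette also carries. The Cdc25a peak was in 1 OCT4 replicate list and the Klf4 peak in none. The median Dox+ minus Dox- coverage of the 4 gene lists was 0.82, 0.64, 1.16 and 0.71 percentage points, against 0.34 over all genes tested. Of 5 established SMAD3 targets used as a check of the ChIP, all 5 had a merged peak in both conditions, and Smad7 and Ski had sites listed lower with dox. Ccn2 had a merged OCT4 peak at -4.71 kb from its start, at a fold of 8.44, which was in no OCT4 replicate list.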

How the data were processed

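Members and gene lists were chosen with earlier results of these data known. Per the labels and methods, the authors trimmed reads (Trimmomatic 0.36), aligned them to mm10 with Bowtie 2, removed duplicates, low-quality alignments and blacklisted regions, and called peaks with MACS2 2.1.0 against pooled inputs, on each replicate and on pooled replicates (OCT4 narrow, q 0.01, and SMAD3 broad, cutoff 0.1). The deposited peak lists give a fold over input (a ratio) and a −log10 q-value. In the SMAD3 lists these were not used as strength, because they did not follow the peaks. The gapped lists, which mark stringent inner blocks, were used for an alternative. The deposited matrices hold a signed score, 1x-scaled ChIP minus input in bins of 10 bp around OCT4 peaks. The deposited DiffBind 1.16.3 tables keep sites at an FDR of 0.1 or less whose log2 fold is 1 or more in size, with log2 group means. Their log2 folds, p-values and FDR are the authors' own comparisons and were not used.

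Overlap meant 1 shared bp with a window of the gene span plus 10 kb. Named genes were all members, and list genes whose window held a merged OCT4 peak or a listed dox site. Percent covered was compared with exact two-sided permutation tests over all genes, and regions present in at least 2 replicate lists were rebuilt by joining overlapping peaks. Python 3.11.15, numpy 2.4.6, scipy 1.17.1, pysam 0.24.0 and matplotlib 3.10.9 were used. Window coverage and the exact tests were checked on simulated data. Sequences were read from the GRCm38 reference, which is the assembly of mm10. Alternatives were other flanks, q-value limits, peak centers, list lengths and scales, single replicates left out, and a fit within replicate numbers.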

Additional observations from a re-analysis of the deposited data

How the results depend on the processing

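Presence of SMAD3 peaks at the members stayed at 10 of 10 in both merged lists with flanks of 5 and 50 kb and with peak centers. The shares of all genes, Dox+ then Dox-, were 49.3% and 44.5% at 5 kb and 66.9% and 63.7% at 50 kb. With peak centers they were 52.4% and 47.8%. Within 500 bp of an own start, an alternative added after seeing the data, 9 members had a merged peak in Dox+ (41.9% of all genes) and 10 in Dox- (37.2%). A q-value limit of 0.01 left 7 members in Dox+ (27.1% of all genes) and 4 in Dox- (21.1%). Peaks with a stringent inner block left 9 and 10 (47.4% and 42% of all genes). That q-value limit, and the 420 strongest peaks by fold, select by columns that did not follow the peaks. Presence in at least 2 replicate lists ranged from 0 to 8 members in Dox+ and from 4 to 7 in Dox- when single replicates were left out. It was 0 without Dox+ replicate 2 (2.47% of all genes) and 0 without Dox+ replicate 3 (2.56%). It was 5 without Dox- replicate 1 (21.5% of all genes) and 4 without Dox- replicate 2 (7.45%). Asking for all 3 lists left 0 members in Dox+ (2.47% of all genes) and 4 in Dox- (7.43%). A q-value up to 0.01 left 2 and 0 (9.44% and 1.07% of all genes). Peaks with a stringent inner block (an alternative added after seeing the data) left 4 in Dox- (12.4% of all genes). With a flank of 50 kb, 3 members had a merged OCT4 peak (8.91% of all genes). At that flank 1 had a site listed lower with dox (7.9%) and 1 a site with OCT4 above SMAD3 (8.17%). Over 1000 bp, the signal at the Cdkn2a OCT4 peak was 6.50 for OCT4, 1.59 for SMAD3 Dox+ and 0.82 for SMAD3 Dox-.

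The number of members with a higher mean in Dox+ ran from 2 to 10 as single replicates were left out. It was 2 without Dox+ replicate 2, 4 without Dox- replicate 1, 10 without Dox- replicate 2 and 4 without Dox- replicate 3. It was 0 with the strongest 420 peaks, 3 per Mb of list, and, in alternatives added after seeing the data, 2 with the widest 420 peaks and 4 on a log2 scale (offset 0.1). Shares over all genes were not computed for these counts, nor for those with single replicates left out. Leaving out single replicates, the difference in percentage points ranged from -2.21 to 1.70 for Cdkn2a, -2.09 to 3.49 for Cdkn2b, -0.60 to 1.70 for Cdkn2c, -1.98 to 7.79 for Cdkn1a, -0.30 to 8.22 for Cdkn1b, -1.47 to 0.51 for Cdkn1c, -1.75 to 2.41 for Trp53 and -5.61 to 2.95 for Mdm2. It stayed above 0 for Ccnd1 (5.01 to 15.2) and Ccnd2 (2.13 to 11.3). Other reversals were Ccnd2 with the strongest 420 peaks (-0.16), Cdkn2b, Cdkn2c, Cdkn1a and Cdkn1b per Mb of list (-83.6, -133, -59.2 and -67.7 bp), Cdkn2a and Trp53 at a q-value up to 0.01 (0.28 and -1.75), Cdkn2c with a flank of 5 kb (-0.51) and Cdkn2a with one of 50 kb (0.11). Reversals in the added alternatives were Cdkn2a, Cdkn2c and Mdm2 with inner blocks (0.19, -0.57 and 0.24) and Cdkn2c, Cdkn1a and Cdkn1b on the log2 scale (-0.63, -0.12 and -0.11). The cause of these reversals was not tested. Deviations from the group means correlated at 0.73, 0.66 and -0.30 for replicate numbers 1, 2 and 3. Dox+ replicate 3 correlated better with Dox- replicate 2 (0.37), so these values do not settle whether replicate numbers pair the samples. With a replicate block the differences are the same by arithmetic (for Ccnd1 9.07, and 7 members higher in Dox+) and so say nothing of stability. The exact sign-flip p for Ccnd1 was 0.5, where 0.25 is the smallest possible.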
